A study of Mus musculus with 6 samples.

Results

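The natriuretic peptide system was examined in cardiomyocyte (CM) nuclei of hearts that overexpressed (OE) an active form of YAP, the transcriptional coactivator of the Hippo pathway. The set held 7 of the 54532 genes counted, taken by name: the ligand genes *Nppa*, *Nppb* and *Nppc*, the guanylyl cyclase receptor genes *Npr1* and *Npr2*, the clearance receptor gene *Npr3*, and *Corin*, which encodes a processing protease. All mice were wildtype ICR animals that received 1e+11 viral genomes of AAV9 under the skin at postnatal day 6 (P6), with hearts taken at P9, 3 d later. The cardiac troponin T (cTnT) promoter, which is active in CMs, drove the cargo, and nuclei were pulled down with PCM-1, a protein that surrounds the nuclei of CMs. The cargo was GFP in the control group, YAP5SA, in which the LATS kinase sites are mutated so that YAP is no longer restrained, or YAP6SA, which carries the same changes and a further serine-to-alanine change at the residue needed to bind TEAD. Comparing the YAP variants addressed which changes come without TEAD binding. The study also reported less YAP6SA than YAP5SA in the nucleus and more in the cytoplasm. TEAD binding and location in the cell therefore cannot be told apart in this comparison. From 2 hearts per virus came 2 libraries, which the labels assign to a first and a second batch. Nothing in the labels says more of their source, so the p-values measure the spread between these libraries.

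Natriuretic peptides are hormones of the heart. ANP, encoded by *Nppa*, and BNP, encoded by *Nppb*, are released from stretched CMs and act on NPR-A, the product of *Npr1*. CNP, encoded by *Nppc*, comes mainly from endothelial cells and acts on NPR-B, the product of *Npr2*. Both receptors make cyclic GMP (cGMP), whereas NPR-C, encoded by *Npr3*, takes up all 3 peptides and removes them. Corin is a membrane protease of CMs that cuts pro-ANP to its active form. In the mouse ventricle, *Nppa* and *Nppb* are widely read as genes of the fetal and stressed heart, and *Nppa* stays high in the atria throughout life.

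The libraries held 14552847 to 19615627 gene counts. Mouse *Yap1* lay between 102 and 139 CPM (counts scaled to library size) in all 6 libraries and did not differ between YAP5SA OE CMs and GFP (log2 fold change -0.17, adjusted p = 0.495, edgeR quasi-likelihood test), so it gave no check of the transgene. The 8 general CM markers summed to 28600 to 64020 CPM per library, with *Myh6*, the cardiac myosin heavy chain, the most abundant per kb. Markers of other cells were present as well. None of the 8 endothelial or 8 fibroblast markers was at 0 in every library. The fibroblast markers summed to 1367, 1777 and 1496 CPM in the batch 1 libraries of GFP, YAP6SA and YAP5SA, and to 860.0, 984 and 906 in those of batch 2. In bulk nuclei, fewer cells of a type and less RNA per cell cannot be told apart.

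*Nppa* and *Nppb* are neighbours on chromosome 4 of GRCm38, both on the plus strand. *Nppb* (ENSMUSG00000029019) runs from 147985788 to 147987205 and *Nppa* (ENSMUSG00000041616) from 148000722 to 148002079, and 13.52 kb lie between them. Promoter sequence of each is printed because these were the 2 members that passed the test. For *Nppa*, the 250 bases before the start (RefSeq, GRCm38.p6, chr4:148000472-148000721, plus strand) are given, and for *Nppb*, the 30 bases that hold its motif matches (chr4:147985793-147985822, plus strand). The capitals mark matches to the motifs searched.
Nppa: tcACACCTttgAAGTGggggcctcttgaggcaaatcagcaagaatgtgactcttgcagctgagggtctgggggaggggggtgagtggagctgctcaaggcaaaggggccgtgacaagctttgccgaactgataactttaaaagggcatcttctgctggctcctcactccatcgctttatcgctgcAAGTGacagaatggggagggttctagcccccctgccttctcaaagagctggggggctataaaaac
Nppb: caGGAATGcagctgataaatcagAGATAAc
The *Nppb* stretch holds MCAT, the element that TEAD factors bind (GGAATG), at -105 and a GATA element (AGATAA) at -84, counted from the RefSeq start. The annotation used for the gene positions starts *Nppb* upstream of this stretch. The *Nppa* promoter holds the NKX2-5 element (AAGTG) at -239 and -65 and, on the other strand, the T-box element (AGGTGT) at -248. Only the letters AGATAA were searched as the GATA element. The variant TGATAA, which both printed stretches hold in lower case, was not searched, so *Nppa* cannot be read as lacking a GATA element. Both strands were searched in the 250 bases before the start of all 32851 promoters in the table, and 12.6% held MCAT, 9.99% GATA, 40.7% the NKX2-5 element, 11.8% T-box, 1.47% the CArG box of SRF, and 1.56% the MEF2 element TATTTATA. Among the other 5 members, the only match was a T-box element at -151 of *Npr2*. A match is a description of letters and not evidence of binding.

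YAP5SA OE CMs had more RNA of both cardiac peptide hormones, and YAP6SA OE CMs had no member past the test. Of the 6 members that could be tested, *Nppa* and *Nppb* rose in YAP5SA OE CMs against GFP and 0 fell by edgeR's quasi-likelihood test, where 12.8% of the 13323 genes tested rose and 9.18% fell. DESeq2, limma-voom and the likelihood ratio test each called 1 lower as well, *Npr2*, and 4 members had an unadjusted p under 0.05. Over all genes, 19.4% were higher and 17% lower at an unadjusted p under 0.05. Against YAP6SA, *Nppa* rose and 0 members fell by edgeR's quasi-likelihood test, where 9% of genes rose and 5.68% fell. DESeq2 and limma-voom gave the same calls of members. There 4 members had an unadjusted p under 0.05, where 16.4% of all genes were higher and 14.5% lower at that level. Between YAP6SA and GFP, 0 members were called by edgeR's quasi-likelihood test, where 0.045% of genes rose and 0% fell. DESeq2 and limma-voom called 0 members as well. At an unadjusted p under 0.05 there were 0 members, where 3.86% of all genes were higher and 2.07% lower. Later counts at an unadjusted p are read against these shares. This comparison depended on the fit. With only its 4 libraries in the edgeR fit, *Nppb* was called higher (adjusted p = 0.0196), and over all genes 198 rose and 78 fell. The study, which also used edgeR with a batch covariate, reported many more changed genes in YAP6SA OE CMs than the 6 called here in the fit of all libraries. Both contrasts with GFP use the same 2 control libraries.

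**Figure D1:**
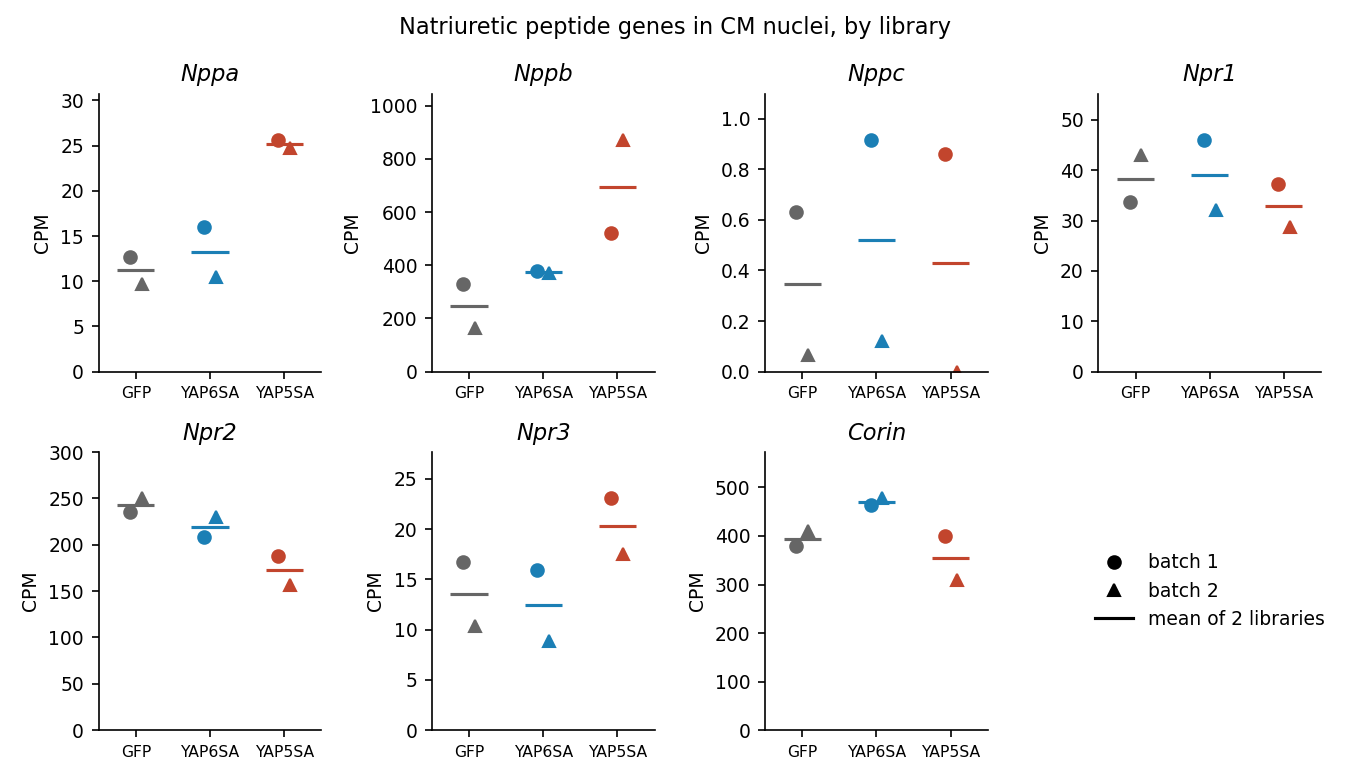
Expression of the 7 natriuretic peptide genes in CPM, each on its own axis from 0, with 1 point per library (circles, batch 1; triangles, batch 2) and a line at the mean of the 2 libraries of a group. The YAP5SA libraries lie above both other groups for *Nppa*, *Nppb* and *Npr3* and below both for *Npr2*.

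*Nppb* was the most abundant member per kb of exon in every library. In the order batch 1, batch 2, which all pairs of values below follow, it gave 6279 and 2542 counts under GFP, 7423 and 6146 under YAP6SA, and 7845 and 15547 under YAP5SA. Scaled to library size this was 330.1 and 166 CPM in GFP, 378 and 373 in YAP6SA, and 519.7 and 871 in YAP5SA. The 3 groups did not overlap and stood in the order GFP, YAP6SA, YAP5SA. The means were 248 ± 116 CPM (SD, n = 2), 375 ± 3.56 and 696 ± 249. YAP5SA exceeded GFP by a log2 fold change of 1.51 (SE 0.33, 95% interval 0.77 to 2.25, adjusted p = 0.0116, edgeR). It was 0.65 within batch 1 and 2.39 within batch 2, the same direction with a size that differed between the batches. Without the GFP library of batch 2, the lowest of the 6, it was 0.86 and no longer passed (adjusted p = 0.125), and without that of batch 1 it was 2.22. Without the YAP5SA library of batch 1 or 2 it was 2.14 or 0.89 and still passed. In YAP6SA OE CMs the log2 fold change was 0.61 (SE 0.32, interval -0.11 to 1.32, adjusted p = 0.854), with 0.19 in batch 1 and 1.17 in batch 2. Without the GFP library of batch 2 that difference was 0.015 and without that of batch 1 it was 1.37, neither past the test (adjusted p = 1.0 and 0.279). It passed in 1 of 11 alternative fits, that of the 4 libraries compared (0.0196), and with 1 of the 6 libraries left out, the YAP5SA library of batch 2 (0.0467). Between YAP5SA and YAP6SA it was 0.90 (SE 0.32, interval 0.19 to 1.62, adjusted p = 0.0882), which missed the threshold here. It was 0.21 without the YAP5SA library of batch 2 (adjusted p = 0.647) and was 1.46 without that of batch 1. Of 11 alternative fits 3 called it, that with no filter on low counts (2.55e-06), the 4-library fit (0.0204) and the likelihood ratio test (0.0355), whereas DESeq2 gave 0.33. It also passed without either GFP library (0.0179 and 0.0218).

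*Nppa* had far fewer counts, 242 and 149 in GFP, 314 and 173 in YAP6SA, and 387 and 441 in YAP5SA. These were 12.7 and 9.73 CPM in GFP, 16.0 and 10.5 in YAP6SA, and 25.6 and 24.7 in YAP5SA. Both YAP5SA libraries were above all 4 others, whereas the GFP and YAP6SA libraries overlapped. The log2 fold change of YAP5SA against GFP was 1.18 (SE 0.23, interval 0.66 to 1.71, adjusted p = 0.00744, edgeR), with 1.01 in batch 1 and 1.35 in batch 2. Without the GFP library of batch 2 it was 1.15, with an adjusted p of 0.0763. Against YAP6SA it was 0.96 (SE 0.23, interval 0.44 to 1.47, adjusted p = 0.0235), with 0.68 and 1.24 in the batches. That call was lost without either YAP6SA library (0.0639 for batch 1, 0.329 for batch 2), without the YAP5SA library of batch 2 (0.0844), and in the fit with no replicate block (0.0623). Between YAP6SA and GFP the log2 fold change was 0.23 (SE 0.23, interval -0.30 to 0.75, adjusted p = 0.929).

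**Figure D2:**
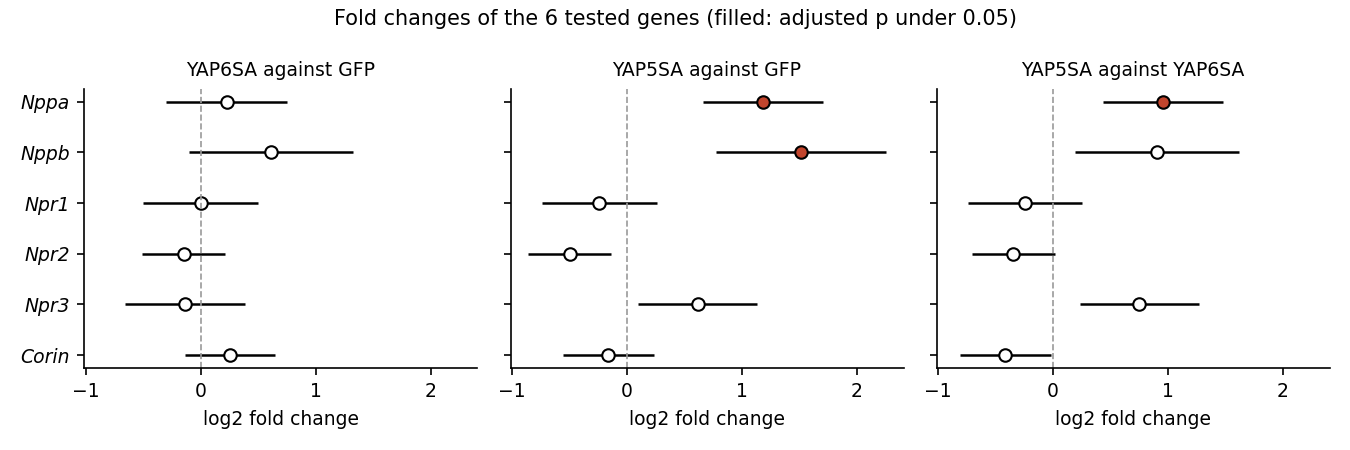
Log2 fold change of the 6 tested members in the 3 comparisons, with 95% intervals of the edgeR fit and filled points where the adjusted p was under 0.05. *Nppa* and *Nppb* are filled in YAP5SA against GFP, *Nppa* in YAP5SA against YAP6SA, and no member in YAP6SA against GFP.

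The counts of *Nppa* came from a small part of the gene. On the opposite strand lies *Gm13054* (148001091 to 148004014), an antisense gene, whose exons cover 532 of the 865 exon bases of *Nppa*, or 61.5%. Of exon 2 (148001058 to 148001384, 327 bases), 294 bases are shared, and of exon 3 (148001775 to 148002079, 305 bases), 238. Exon 1 (148000722 to 148000954, 233 bases) is free of overlap. The libraries carry no strand, so a read in the shared bases fits both genes, and the deposited table holds reads that fit several genes in a separate row with 5.79% to 6.31% of reads. That row does not say which genes its reads came from. The counts given for *Nppa* are therefore too low, by an amount that the table does not give. The coding bases of exon 1, which no other gene overlaps, are printed from the start codon (capitals) to the end of the exon (GENCODE M21, chr4:148000835-148000954, plus strand).
Nppa exon 1: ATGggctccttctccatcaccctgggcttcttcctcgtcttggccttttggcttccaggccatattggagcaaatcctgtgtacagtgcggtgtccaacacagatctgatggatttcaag
The counts assigned to *Gm13054* were 104 and 22 in GFP, 125 and 59 in YAP6SA, and 102 and 113 in YAP5SA. Of its bases outside the exons of *Nppa*, 132 of its exon 2 and 10 of its exon 3 lie in the intron between exons 2 and 3 of *Nppa*. Reads of unspliced *Nppa* RNA there could be counted as *Gm13054*, and their part in its counts was not tested. The log2 fold change of the *Gm13054* counts was 1.13 in YAP5SA against GFP (SE 0.46, adjusted p = 0.11). In YAP6SA against GFP it was 0.63 (SE 0.46, adjusted p = 0.907). With the counts of both genes summed, the *Nppa* log2 fold change of YAP5SA against GFP was 1.16 (adjusted p = 0.00779) and that against YAP6SA 0.85 (adjusted p = 0.035).

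**Figure D3:**
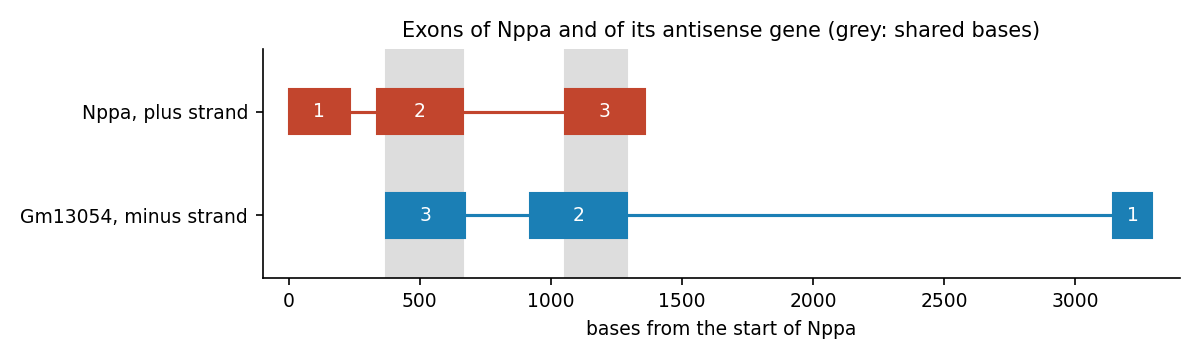
Exons of *Nppa* and of *Gm13054* on the opposite strand, drawn to scale by distance from the start of *Nppa*, with exon numbers in the boxes and shared bases in grey. The shared bases cover most of exons 2 and 3 of *Nppa* and none of exon 1.

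Of the 3 ligands, *Nppb* gave nearly all counts. *Nppa* made up 3.70% (exact Clopper-Pearson 95% interval 3.26% to 4.19%) and 5.54% (4.70% to 6.47%) of the ligand counts in GFP, 4.05% (3.62% to 4.51%) and 2.74% (2.35% to 3.17%) in YAP6SA, and 4.69% (4.25% to 5.17%) and 2.76% (2.51% to 3.02%) in YAP5SA. The intervals cover counting error only. The share ranged as widely between the batches of a group as between groups. The 2 shares of each group overlapped those of the others, and the missing reads of *Nppa* make all of them too low.

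*Nppc* was close to absent. The gene (ENSMUSG00000026241, chromosome 1, 86666291 to 86670571, minus strand) had 12, 18 and 13 counts in the batch 1 libraries of GFP, YAP6SA and YAP5SA, and 1, 2 and 0 in those of batch 2. It did not pass the filter on low counts and was not tested. The 0 in YAP5SA allows up to 0.174 CPM, and with so few counts in batch 2 no fold change is given. It was higher in batch 1 in each group, as were the summed endothelial markers, which were 612, 712 and 631 CPM in batch 1 and 479, 492 and 494 in batch 2, and the fibroblast markers given above. Their part in it was not tested.

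No receptor gene passed the test. *Npr2*, the CNP receptor gene (ENSMUSG00000028469, chromosome 4, 43631935 to 43651244, plus strand), was the more abundant of the cyclase receptors, with 4485 and 3830 counts in GFP, 4094 and 3798 in YAP6SA, and 2844 and 2793 in YAP5SA. In CPM it was 236 and 250.1 in GFP, 208 and 230.2 in YAP6SA, and 188 and 157 in YAP5SA, 3 groups that did not overlap and fell in that order. The log2 fold change of YAP5SA against GFP was -0.50 (SE 0.16, interval -0.86 to -0.13), with -0.32 and -0.68 in the batches, and its adjusted p of 0.0536 just missed the threshold. It kept its direction in all fits and passed in 5 of 11 alternatives, with adjusted p from 0.0335 with no filter to 0.0944 in the 4-library fit, DESeq2 at 0.0496 and limma-voom at 0.042 among them. Of the 6 fits with a library left out, 1 passed, that without the YAP5SA library of batch 1 (-0.68, adjusted p = 0.00267), whereas without that of batch 2 the value was -0.30 (0.255). Against YAP6SA it was -0.35 (SE 0.16, interval -0.71 to 0.01, adjusted p = 0.177), and YAP6SA against GFP gave -0.15 (SE 0.16, interval -0.51 to 0.21, adjusted p = 0.929).

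*Npr1*, the receptor gene for ANP and BNP (ENSMUSG00000027931, chromosome 3, 90450591 to 90465866, minus strand), showed no common direction. It had 33.7 and 43.0 CPM in GFP, 46.0 and 32.1 in YAP6SA, and 37.2 and 28.7 in YAP5SA, and all 3 groups overlapped. The log2 fold change was 0.00 for YAP6SA against GFP (SE 0.22, interval -0.50 to 0.50), from 0.45 in batch 1 and -0.42 in batch 2, and its sign turned with DESeq2's size factors (-0.0045). For YAP5SA it was -0.24 against GFP (SE 0.22, interval -0.74 to 0.26, adjusted p = 0.475) and -0.24 against YAP6SA (interval -0.74 to 0.25, adjusted p = 0.505). Its direction against GFP turned without the GFP library of batch 2 (0.18).

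*Npr3*, the clearance receptor gene (ENSMUSG00000022206, chromosome 15, 11839896 to 11907287, minus strand), was low, with 318 and 158 counts in GFP, 314 and 146 in YAP6SA, and 348 and 312 in YAP5SA. In CPM it was 16.7 and 10.3, 16.0 and 8.85, and 23.1 and 17.5. Both YAP5SA libraries were above all others. The log2 fold change was 0.61 against GFP (SE 0.23, interval 0.10 to 1.13, adjusted p = 0.0833) and 0.75 against YAP6SA (SE 0.23, interval 0.24 to 1.27, adjusted p = 0.056), with 0.46 and 0.76, and 0.53 and 0.98, within batches 1 and 2. Neither passed here. Of 11 alternatives 0 called the first, and 2 called the second, no filter (0.0349) and the likelihood ratio test (0.0227). Both passed without the YAP5SA library of batch 1 (0.0278 and 0.0139) and with none of the other 5 libraries left out, and without that of batch 2 they were 0.44 and 0.58. *Npr3* was lower in batch 2 in each group, with a log2 difference between batches of -0.64 (SE 0.19, unadjusted p = 0.00684, adjusted p = 0.212). The summed markers of endocardial cells, a cell type known for NPR-C, were 87.2, 170.0 and 123 CPM in batch 1 and 62.8, 75.2 and 87.2 in batch 2, in the order GFP, YAP6SA, YAP5SA. Their part in it was not tested.

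*Corin*, the pro-ANP protease gene (ENSMUSG00000005220, chromosome 5, 72300025 to 72504473, minus strand), was the second most abundant member per length. It had 379 and 409.6 CPM in GFP, 464 and 478 in YAP6SA, and 400.0 and 309 in YAP5SA. The YAP6SA libraries were the 2 highest, and GFP and YAP5SA overlapped. The log2 fold change was 0.25 for YAP6SA against GFP (SE 0.18, interval -0.14 to 0.65, adjusted p = 0.903), with 0.29 and 0.22 in the batches. For YAP5SA it was -0.16 against GFP (SE 0.18, interval -0.56 to 0.24, adjusted p = 0.552) and -0.41 against YAP6SA (SE 0.18, interval -0.81 to -0.02, adjusted p = 0.145), and the latter, called in 0 of 11 alternatives, was -0.64 without the YAP5SA library of batch 1 (0.00605) and -0.18 without that of batch 2 (0.581). Without the YAP5SA library of batch 2, the value against GFP was 0.07.

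Groups of 2 libraries that do not overlap were common over all genes, and the separations above are read against that share. YAP5SA lay wholly above GFP for 31.2% of genes and wholly below for 29.7%, against 3 and 1 of the 6 tested members. YAP5SA lay above YAP6SA for 28.6% and below for 28.9%, against 3 and 2 members. YAP6SA lay above GFP for 17.3% and below for 17%, against 2 and 1 members, *Nppb*, *Corin* and *Npr2*.

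Levels could be set against each other per kb of exon. Over the 6 libraries, *Nppb* ran from 213 to 1116 CPM per kb, *Corin* from 57.2 to 88.4, *Npr2* from 33.5 to 53.6, *Nppa* from 11.3 to 29.6, *Npr1* from 6.0 to 9.63, *Npr3* from 0.943 to 2.46, and *Nppc* from 0 to 0.879. The ranges of neighbours in this order did not overlap, so the order was the same in every library. The place of *Nppa* rests on its length. Taken over the 333 exon bases it does not share, its mean was 33.7 CPM per kb in GFP, 39.7 in YAP6SA and 75.6 in YAP5SA, and in YAP5SA this lay above the 65.6 of *Corin*.

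The genes whose profiles over the 6 libraries were most like those of the members were found by the root mean square difference of log2 CPM, each centred on its mean, among 13323 genes. For *Nppa* they were *1810055G02Rik* (0.08), *Adcy7* (0.09) and *Ndrg1* (0.09), with a spread of *Nppa* itself of 0.54 on this scale. For *Nppb*, with a spread of 0.72, they were *Cks2* (0.13), *Gm45552* (0.18) and *BC030867* (0.18). *Npr1* was followed by *Iqce*, *Dll4* and *Zfp618* (0.04 to 0.07), *Npr2* by *Msl3*, *Eps15l1* and *Coq2* (0.03 to 0.04), *Npr3* by *Cmklr1*, *Slc45a3* and *Basp1* (0.08 to 0.13), and *Corin* by *Hnrnph3*, *Dip2c* and *Med12l* (0.03 to 0.04). No member was among the 3 nearest genes of another.

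Downstream of the receptors, cGMP is broken down by phosphodiesterases and acts through cGMP-dependent kinases, and a further set of genes cuts or clears the peptides. Of 31 such genes, 21 passed the filter. In YAP5SA OE CMs 0 rose and 3 fell against GFP by edgeR's quasi-likelihood test, and DESeq2 and limma-voom each called 0 higher and 5 lower, where 12.8% of all genes rose and 9.18% fell. Against YAP6SA, 0 rose and 5 fell, with 1 and 7 by DESeq2 and 2 and 6 by limma-voom, where 9% of all genes rose and 5.68% fell. In YAP6SA OE CMs 0 were called against GFP by these 3 tools, where 0.045% of all genes rose and 0% fell by edgeR. At an unadjusted p under 0.05 there were 4, where 3.86% of all genes were higher and 2.07% lower. *Ide* had a log2 fold change of -0.45, and *Pde3a*, *Vasp* and *Rgs2* had 0.37, 0.53 and 0.53. The kinase genes *Prkg1* and *Prkg2* had too few counts to be tested.

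*Pln* and *Rgs2* were the substrates of the kinase that fell. Phospholamban, the product of *Pln*, brakes calcium uptake into the sarcoplasmic reticulum until it is phosphorylated. *Pln* was at 526 and 539 CPM in GFP, 489 and 544 in YAP6SA, and 318 and 206 in YAP5SA, with a log2 fold change of -1.04 against GFP (SE 0.21, adjusted p = 0.00784) and -0.998 against YAP6SA (adjusted p = 0.0127). Of its exon bases 64.7% are shared with other genes. *Rgs2*, a regulator of G protein signalling, was at 187 and 89.9 CPM in GFP, 207 and 167 in YAP6SA, and 98.4 and 51.4 in YAP5SA, with a log2 fold change of -0.87 against GFP (SE 0.19, adjusted p = 0.0118) and -1.40 against YAP6SA (adjusted p = 0.00199). The median log2 fold change of the 6 tested genes of this list was -0.81 in YAP5SA against GFP, beside -0.00 over all genes, and 2 of the other substrates, *Tnni3* and *Mybpc3*, are parts of the contractile apparatus that had values of -0.75 and -0.92 (adjusted p = 0.067 and 0.057). The 8 general CM markers, which share *Pln* and *Tnni3* with this list, had a median of -0.76. By edgeR 2 were called lower, 4 by DESeq2 and 5 by limma-voom. At an unadjusted p under 0.05 there were 5, where 19.4% of all genes were higher and 17% lower. All 8 markers summed to 47760 and 64020 CPM in GFP and to 39760 and 28600 in YAP5SA. Their part in the values of this list was not tested.

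Among the 8 tested phosphodiesterases, *Pde1c* fell in YAP5SA OE CMs, from 123 and 150.2 CPM in GFP to 89.0 and 52.6 (log2 fold change -0.97, SE 0.23, adjusted p = 0.0155), and against YAP6SA (-0.94, adjusted p = 0.0236). *Pde3a*, which also degrades cyclic AMP, fell against YAP6SA, from 80.2 and 76.5 to 48.2 and 43.9 CPM (-0.77, SE 0.16, adjusted p = 0.0122). The value against GFP was -0.39 (adjusted p = 0.104). *Pde9a*, which is selective for cGMP, had 0.23 against GFP (SE 0.24, adjusted p = 0.537), and *Pde5a* 0.29 (SE 0.39, adjusted p = 0.626). The median of the list against GFP was 0.07.

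Of the peptide processing and clearance genes, *Pcsk6*, whose product activates corin, fell against YAP6SA (log2 fold change -0.82, SE 0.22, adjusted p = 0.0329), from 30.4 and 15.0 CPM to 16.4 and 8.91. It was 27.1 and 11.4 CPM in GFP (-0.55, adjusted p = 0.099). *Mme*, which encodes neprilysin, the enzyme that degrades the peptides, was at 10.3 and 7.38 CPM in GFP, 5.39 and 8.0 in YAP6SA, and 14.9 and 12.6 in YAP5SA, and its log2 fold change of 1.03 against YAP6SA (SE 0.31) had an adjusted p of 0.055. *Ostn*, a ligand of the clearance receptor, had 0 counts in all 6 libraries. The guanylyl cyclases and nitric oxide synthases of the second source of cGMP had 3 of 6 genes tested and 0 called in any comparison by the quasi-likelihood test, DESeq2 or limma-voom, with 0 at an unadjusted p under 0.05. *Nos3* was the most abundant of them per kb. Against GFP, *Pde1c* and *Pln* did not pass without the GFP library of batch 2, *Rgs2* without that of batch 1, and *Pde1c* without the YAP5SA library of batch 2. Against YAP6SA, the calls of *Pcsk6*, *Pde1c*, *Pde3a* and *Pln* were lost without the YAP6SA library of batch 2, *Pcsk6* and *Pde3a* without that of batch 1, *Pcsk6* without the YAP5SA library of batch 1, and *Pde1c* without that of batch 2.

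**Figure D4:**
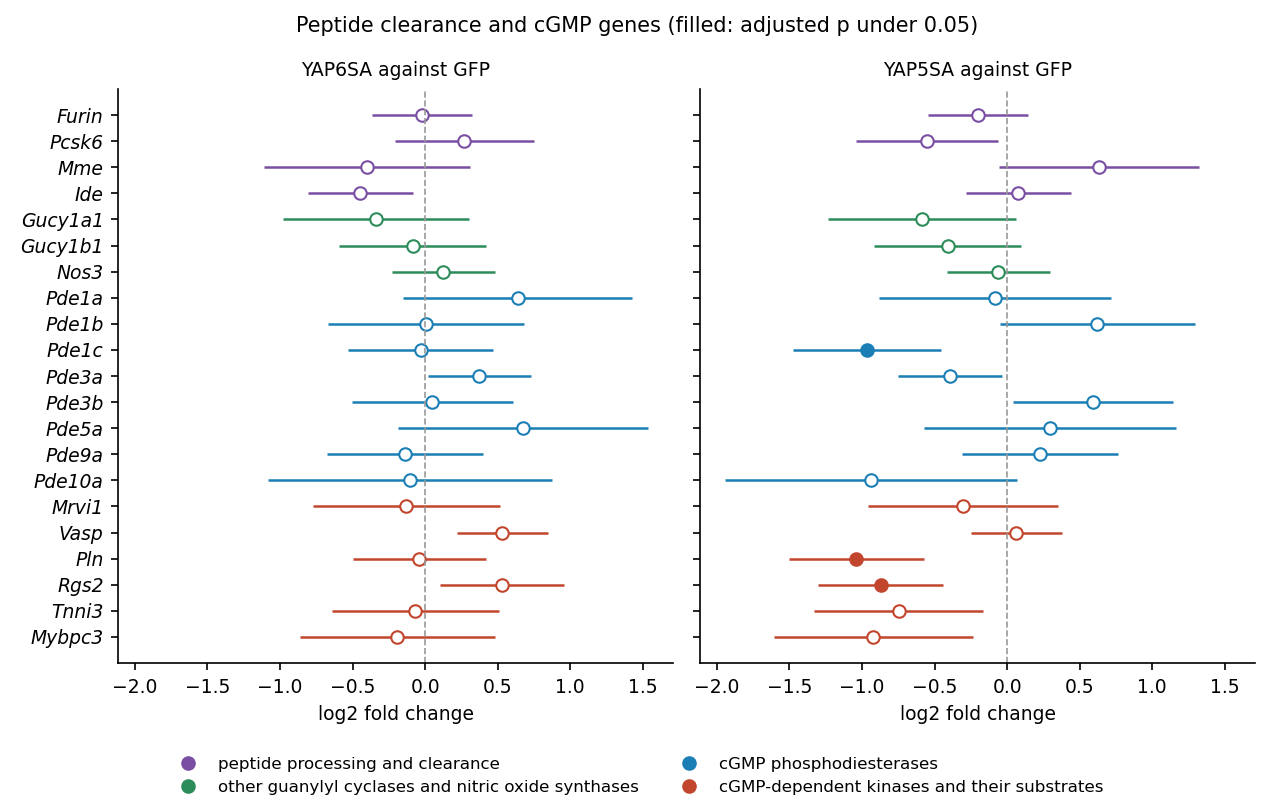
Log2 fold change against GFP of the 21 tested genes of peptide clearance and cGMP signalling, with 95% intervals, coloured by list and filled where the adjusted p was under 0.05. *Pde1c*, *Pln* and *Rgs2* are filled on the lower side in YAP5SA against GFP, and no gene is filled in YAP6SA against GFP.

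Of 20 transcription factor genes known to act at *Nppa* or *Nppb*, 19 were tested, and in YAP5SA OE CMs 3 rose and 1 fell against GFP, a share near that of all genes (12.8% and 9.18%). *Tead1*, which encodes a DNA-binding partner of YAP, was at 221 and 238 CPM in GFP, 213 and 218 in YAP6SA, and 312 and 485 in YAP5SA, and rose against GFP (log2 fold change 0.77, SE 0.18, adjusted p = 0.0156) and YAP6SA (0.86, adjusted p = 0.0137). *Srf*, which encodes the serum response factor, was at 63.3 and 59.4 CPM in GFP, 159 and 146 in YAP6SA, and 143 and 93.3 in YAP5SA. It rose in both variants, by 1.31 in YAP6SA (SE 0.17, adjusted p = 0.0424) and 0.92 in YAP5SA (SE 0.17, adjusted p = 0.00544), and was the 1 gene of all lists that passed in YAP6SA against GFP. *Hand2* rose in YAP5SA by 0.64 (SE 0.15, adjusted p = 0.0154) and had 0.77 in YAP6SA (adjusted p = 0.225), and 19.6% of its exon bases are shared with other genes. *Jarid2*, a repressor, fell in YAP5SA (-0.70, SE 0.20, adjusted p = 0.032). *Gata4*, *Nkx2-5* and *Tbx5*, the core factors of the *Nppa* promoter, had log2 fold changes of 0.03, -0.25 and -0.12 in YAP5SA against GFP, with adjusted p of 0.917, 0.256 and 0.662. *Mef2a* was the most abundant factor per kb. The call of *Srf* in YAP6SA was lost without any 1 of the 4 GFP and YAP6SA libraries, and those in YAP5SA against GFP were lost for *Tead1*, *Hand2* and *Jarid2* without the GFP library of batch 2, for *Srf* and *Hand2* without that of batch 1, and for *Jarid2* without the YAP5SA library of batch 2. *Tead1* lost its call against YAP6SA without the YAP6SA library of batch 2.

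The rise was not shared by the other genes named here around the pair. *Clcn6*, a chloride channel gene on the opposite strand whose near end lies 3.54 kb from the *Nppa* start, had a log2 fold change of -0.06 in YAP5SA against GFP (SE 0.19, adjusted p = 0.838). On the other side of the pair, *Plod1*, a collagen-modifying enzyme gene, fell against YAP6SA (-0.57, SE 0.16, adjusted p = 0.0374), a call lost without any 1 library but the YAP5SA library of batch 1. *Mfn2*, the most abundant of the neighbours per kb, had -0.41 against GFP (SE 0.19, adjusted p = 0.141). *2510039O18Rik*, named for its place next to *Nppb* after its value was seen, had 0.27 (SE 0.18, adjusted p = 0.315).

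*Nppa* is also a marker of atrial CMs, so other atrial genes were read beside it. Of the 10 atrial markers, all tested, 3 rose and 1 fell in YAP5SA OE CMs against GFP, beside 12.8% and 9.18% of all genes. *Myl7*, the atrial myosin light chain and the most abundant of the list per kb, was at 192 and 133 CPM in GFP, 180.1 and 167 in YAP6SA, and 255 and 272 in YAP5SA (log2 fold change 0.72, SE 0.18, adjusted p = 0.0189). *Myl4* rose by 0.74 (SE 0.15, adjusted p = 0.00905) and *Bmp10*, a growth factor of the atrium and the trabeculae, by 1.18 (SE 0.27, adjusted p = 0.0132). *Kcnj3*, the atrial potassium channel gene, fell (-1.17, SE 0.33, adjusted p = 0.0298), and 31.1% of its exon bases are shared with other genes. *Sln*, the atrial sarcolipin gene, had 0.29 (SE 0.24, adjusted p = 0.425), and the median of the list was 0.24. *Kcna5* and *Dkk3* had 0.73 and 0.19, and *Nr2f1*, *Nr2f2* and *Stard10* had -1.09, -0.55 and -0.52. None of these was called by edgeR's quasi-likelihood test, whereas DESeq2 called 3 of the list higher and 2 lower. The summed atrial markers were 525 and 454 CPM in GFP, 589 and 530.2 in YAP6SA, and 714 and 717 in YAP5SA. Most of each sum came from *Myl7* and *Myl4*, the latter at 224 and 196 CPM in GFP and 350 and 349 in YAP5SA. Of the 8 ventricular markers 0 rose (1 by DESeq2 and by limma-voom) and 2 fell, *Irx4*, a ventricular transcription factor gene, by -1.20 (SE 0.23, adjusted p = 0.00654) and *Kcnip2*, a subunit gene of the transient outward potassium channel, by -2.39 (SE 0.49, adjusted p = 0.00834), whereas *Myl2*, the most abundant of them per kb, had -0.13 (SE 0.23, adjusted p = 0.726). Without the GFP library of batch 2 the calls of *Myl4*, *Myl7*, *Bmp10* and *Kcnj3* were lost, and without the YAP5SA library of batch 2 those of *Bmp10* and *Kcnj3*. The part of atrial or ventricular nuclei in the rise of *Nppa* was not tested.

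Markers of other cells were read in YAP5SA OE CMs against GFP. Of the 8 endothelial and 8 fibroblast markers, led per kb by *Egfl7* and *Col3a1*, 0 were called by the quasi-likelihood test, DESeq2 or limma-voom, and 0 and 3 had an unadjusted p under 0.05. Their median log2 fold changes were 0.15 and 0.16. *Tmem100*, an endocardial gene, rose (0.94, SE 0.21, adjusted p = 0.0133), as did *C1qa*, a macrophage gene (0.96, SE 0.25, adjusted p = 0.0228), and *Abcc9*, a potassium channel subunit gene of mural cells that CMs also express, fell (-0.81, SE 0.22, adjusted p = 0.0287). Each was the only gene of its list called. The medians were 0.58 for 5 tested endocardial, 0.87 for 7 macrophage and -0.17 for 6 mural markers. In these lists 1, 3 and 2 genes had an unadjusted p under 0.05, where 19.4% of all genes were higher and 17% lower. Among the mural markers, *Rgs5* went the other way from *Abcc9* (0.70, SE 0.24, adjusted p = 0.060). *Ryr2*, the calcium release channel gene and with *Pln* the general CM marker that was called, fell (-0.81, SE 0.25, adjusted p = 0.0455). *Wt1*, a transcription factor gene of the epicardium, had 13.8 and 13.6 CPM in GFP, 23.6 and 14.6 in YAP6SA, and 92.9 and 155 in YAP5SA (3.17, SE 0.30, adjusted p = 0.000232), the largest change among the tested list genes, while the other 3 tested epicardial markers were not called. Hemoglobin gene *Hbb-bs* led the erythroid markers, of which 2 were tested and 0 called by the 3 tools, with 0 at an unadjusted p under 0.05. Without the YAP5SA library of batch 2, *C1qa*, *Abcc9* and *Ryr2* lost their calls, as did *Ryr2*, *Abcc9* and *C1qa* without the GFP library of batch 2, *C1qa* and *Tmem100* without that of batch 1, and *Ryr2* without either YAP6SA library.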

How the data were processed

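Poly-A RNA from PCM-1-enriched CM nuclei was read in 6 non-directional libraries. Mapping used STAR and mm10 (Ensembl GRCm38.94), and the authors deposited unnormalized read counts per gene. Genes were named and placed with GENCODE M21 (54495 of 54532 matched). Genes with a median log2 CPM over 1 in at least 1 group were kept (13323), after the study's methods. edgeR 4.0.16 (R 4.3.3; TMM, quasi-likelihood) fitted one model of group and batch, with Benjamini-Hochberg adjustment over all genes and a threshold of 0.05. CPM uses TMM library sizes and is not corrected for gene length; per kb means per kb of merged exons. Replicate numbers are batch numbers in the labels, which pairs the libraries; deviations from group means correlated at 0.394, 0.107 and 0.180 between groups. Replicates differed by 27.7 to 43.6 times sampling noise, so no library was a copy. The fit was tested on simulated data. The genes named were the members, list genes called in a comparison, each list's most abundant gene per kb, and other list genes set beside them as context after their values were seen; members and lists were chosen with earlier results of these data known. Alternatives were other scalings, filters and tests (DESeq2 1.42.0, limma 3.58.1), no batch term, 4-library fits and each library left out. Python 3.11.15 and RefSeq promoters (GRCm38.p6) served the motif search. One item of a gene list is not reported here.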

Additional observations from a re-analysis of the deposited data

How the results depend on the processing

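Members called in YAP5SA against GFP (2) were 2 or 3 in all fits of the 6 libraries and 0 to 4 with a library left out, 0 without the GFP library of batch 2. Members called in YAP5SA against YAP6SA (1) were 3 with no filter on low counts, 3 by the likelihood ratio test, 2 in the 4-library fit, and 0 to 5 with a library left out. In YAP6SA against GFP (0), 1 was called in the 4-library fit and 0 to 1 with a library left out. With no replicate block, which ignores the pairing by batch, 0 members were called between YAP5SA and YAP6SA. Genes called higher in YAP6SA against GFP (6) were 109 with no filter, 54 by the likelihood ratio test, 40 by DESeq2, 198 in the 4-library fit and 6 to 156 with a library left out; those called lower (0) were 36, 28, 14, 78 and 0 to 57. With no replicate block 0 genes were higher there, 759 were lower in YAP5SA against GFP (1223), and 301 against YAP6SA (757), which was 1161 with no filter and 1155 by the likelihood ratio test. With a library left out, YAP5SA against GFP gave 560 to 2581 higher (1708) and 178 to 2282 lower, and YAP5SA against YAP6SA 328 to 2206 higher (1199) and 68 to 1954 lower. A library left out leaves 1 in its group, taken to vary like the others. *Npr1* reversed in YAP6SA against GFP with DESeq2's size factors (-0.0045) and by DESeq2 (-0.0059) and ran from -0.39 to 0.41 with a library left out, negative without GFP replicate 1 or YAP6SA replicate 1. With a library left out it ran from -0.61 to 0.18 in YAP5SA against GFP (positive without GFP replicate 2) and from -0.48 to 0.033 against YAP6SA (positive without YAP6SA replicate 1), *Npr3* ran from -0.30 to 0.0058 in YAP6SA against GFP (positive without YAP6SA replicate 2), and *Corin* from -0.38 to 0.073 in YAP5SA against GFP (positive without YAP5SA replicate 2). Of the other fits of members and named genes, 797 kept their direction and side of the threshold, 79 lost a call and 20 gained one. The legacy quasi-likelihood fit planned as an alternative is the default of this edgeR and gave the reported values; the newer form and the sum of *Nppa* and *Gm13054* were chosen after seeing the data. The cause of these differences was not tested. With 2 libraries a group, outlying libraries could not be tested, and depth limits *Nppc* most.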
